A study of Mus musculus with 12 samples.

Results

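The platelet-derived growth factor (PDGF) system and the surface markers used to recognise fibroblasts were followed through 10 genes in pancreatic tumours of mice treated with an inhibitor of focal adhesion kinase (FAKi) or with vehicle. The genes were the ligands Pdgfa, Pdgfb, Pdgfc and Pdgfd, the receptors Pdgfra and Pdgfrb, the surface markers Fap, Pdpn and Thy1, and the matrix gene Dpt. They were chosen by name, as the array probes that carry one of these gene names, which gave 17 of the 56605 probes of the array and 10 of its 37008 genes. Female C57BL/6 mice, given in the labels as 8 weeks old, bore orthotopic tumours that the labels call KP. The 6 FAKi tumours came from mice dosed with the inhibitor at 50 mg/kg by gavage for 14 days, and the 6 vehicle tumours from mice given vehicle for the same time. Focal adhesion kinase is a tyrosine kinase that relays integrin signals at the sites where cells hold on to matrix. The inhibitor is not named in the labels, nor is it said whether the grafted cells were one line, and the tumours are numbered without a statement that each came from its own mouse, so p-values measure the spread between these samples.

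Total RNA of each tumour piece was hybridised to a one-colour Agilent array. Values below are log2 signals relative to the array's own 75th percentile, so that 0 is that percentile, and a level can be compared between tumours for one probe but not between probes. The unscaled 75th percentile of log2 signal ran from 11.82 on vehicle 6 to 13.88 on vehicle 1. Over the 12 arrays, 66.6% to 76.1% of spots were well above background, and arrays correlated with each other at 0.885 to 0.976 across genes. All 8 epithelial tumour markers listed, 16 of 18 pan-fibroblast genes and all 8 T cell genes were well above background on all 12 arrays. The number of arrays limits the precision: the median standard error of a difference between the groups was 0.33 over 27352 genes.

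PDGFs are secreted dimers that bind and pair receptor tyrosine kinases on mesenchymal cells. PDGF-A and PDGF-C act mainly through the alpha receptor and PDGF-D mainly through the beta receptor, while PDGF-B binds both. In pancreatic tumours epithelial cells are a known source of ligand, and fibroblasts, stellate cells and pericytes carry the receptors. FAP (a cell surface serine protease), podoplanin (the mucin-like glycoprotein encoded by Pdpn) and THY1 (a glycolipid-anchored protein) mark overlapping fibroblast populations, though each also occurs on other cells, and dermatopontin, encoded by Dpt, is a secreted matrix protein of fibroblasts that binds decorin.

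None of the 10 genes differed between FAKi and vehicle tumours in limma after Benjamini-Hochberg adjustment over all genes. That was 0 of 10, beside 0% of the 27352 genes tested, whose adjusted p-values started at 0.353. Before adjustment, 1 of 10 had p under 0.05, Pdgfd, beside 4.79% of all genes, 2.72% in the higher and 2.08% in the lower direction. That count was 2 with quantile normalisation, normexp background correction or the authors' deposited table, where Pdgfb joined, 3 with array weights, where Pdgfrb and Thy1 joined, and 0 with slide as a fixed block. The median difference of the 10 genes, FAKi minus vehicle, was 0.09 on the log2 scale, close to the 0.08 of all genes, with 6 of 10 above 0 beside 60.5% of all genes. A difference of over 0.5 in either direction was seen for Pdgfc and Pdgfd, 2 of 10, beside 18.1% of all genes. In all 10 genes the values of the FAKi and vehicle tumours overlapped, while 0.239% of all genes had groups that did not overlap. Within each group the tumours spread widely, and the SD was smaller among FAKi than among vehicle tumours for 8 of 10 genes, beside 72.2% of all genes.

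**Figure D1:**
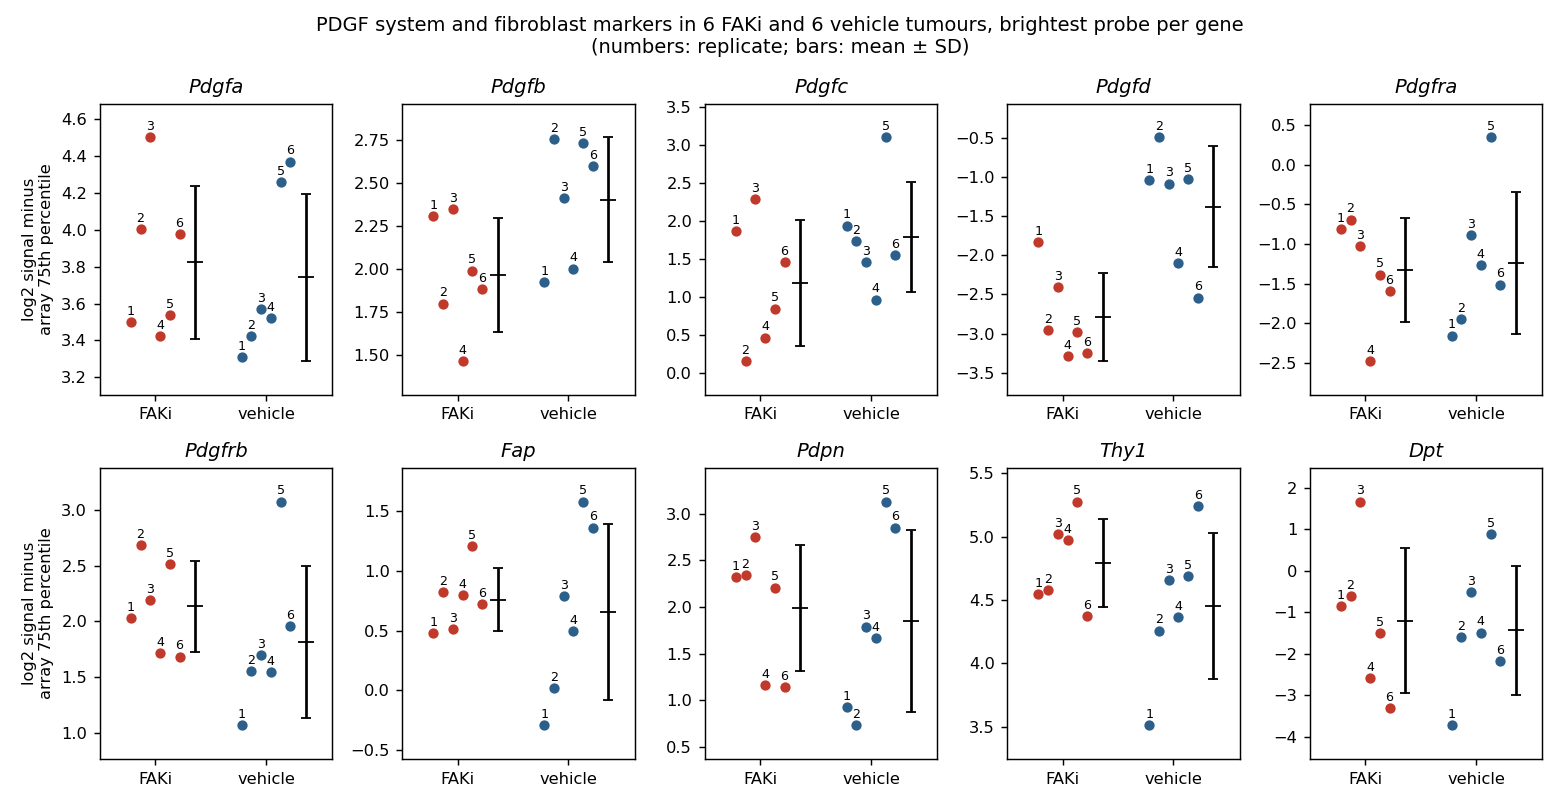
Log2 signal of each gene relative to the array's 75th percentile, one panel per gene with its own vertical scale; points are the 6 FAKi and 6 vehicle tumours with their replicate numbers, and bars are mean ± SD. FAKi values of Pdgfd sit low in the panel but overlap the vehicle values, and vehicle 5 is the highest tumour for Pdgfc, Pdgfra, Pdgfrb, Fap and Pdpn.

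Among the ligands, Pdgfd gave the largest difference. It encodes a ligand that is secreted in a latent form and needs proteolytic removal of its CUB domain before it binds the beta receptor. The FAKi tumours 1 to 6 had Pdgfd values of -1.83, -2.96, -2.40, -3.29, -2.98 and -3.25, and the vehicle tumours 1 to 6 had -1.04, -0.49, -1.08, -2.10, -1.02 and -2.54. Each of the 6 FAKi tumours lay below the vehicle mean, but vehicle 4 and vehicle 6 were lower than FAKi 1, so the groups overlapped. The means were -2.79 ± 0.56 in FAKi and -1.38 ± 0.77 in vehicle tumours (SD, n = 6 each), a difference of -1.41 (SE 0.37, 95% interval -2.21 to -0.61), or a level of 0.377 times that of vehicle tumours (95% interval 0.217 to 0.656). This had an unadjusted p of 0.0021 in limma and rank 62 of 27352 genes, and did not pass adjustment (adjusted p = 0.855). A limma p as small or smaller was seen for 0.227% of all genes. For Pdgfd alone, exact permutation of the tumours between the groups gave a two-sided p of 0.0108, where the smallest possible value was 0.0022. That p was not adjusted for singling out Pdgfd by its large difference.

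Both probes of Pdgfd were well above background on all 12 arrays. The brighter one lies at chr9:6378717-6378776 and the other at chr9:6376926-6376985, upstream of it on the plus strand, in the mm9 coordinates of the array's design. No gene annotation of that build was used here, so exons and untranslated regions were not assigned to probes. The second probe gave -3.98 ± 0.80 in FAKi and -3.25 ± 0.75 in vehicle tumours (SD, n = 6 each), a difference of -0.73 (SE 0.42). With limma on single probes this had an unadjusted p of 0.102 and an adjusted p of 0.966. The probes correlated at r = 0.81 over the 12 tumours, which share arrays, but did not order the tumours alike: FAKi 4 was the lowest tumour at the first probe, at -3.29, and had -3.74 at the second, above FAKi 6 at -5.39 and vehicle 4 at -4.11. The second probe is printed because the size of the Pdgfd difference depends on which of the probes is read; 2 of its 3 forward reading frames hold no stop codon.
Pdgfd second probe: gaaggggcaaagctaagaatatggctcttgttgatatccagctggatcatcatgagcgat

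The arrays lay on 5 slides, and only slides 1 and 4 held tumours of both groups, with 1 FAKi and 2 vehicle tumours each. The Pdgfd difference was -1.93 within slide 1 and -0.31 within slide 4, and -1.12 with slide as a fixed block (limma, unadjusted p = 0.10). Markers of vessels are given beside this result. All 8 endothelial genes had a difference below 0, with a median of -0.34, while 60.5% of all genes were above 0. Lower at an unadjusted p under 0.05 were 2 of the 8, beside 2.08% of all genes. The endothelial score is the mean over genes of the log2 value less each gene's average over the tumours. It ran from -0.97 to 0.24 in FAKi tumours and from -0.74 to 1.07 in vehicle tumours. The scores overlapped, and vehicle 1 had the second lowest score but the third highest Pdgfd value. Vehicle 5 had the highest score and the second highest Pdgfd value, and FAKi 6 the lowest score and the second lowest Pdgfd value. Of these 8 genes, 7 were well above background on all 12 arrays, and none passed adjustment. Their part in the Pdgfd values was not tested. In tumour pieces, fewer cells that make a transcript and less transcript per cell cannot be told apart.

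Pdgfb, the ligand that endothelial cells release to recruit pericytes, ran in the same direction with a smaller difference. Its brighter probe lies at chr15:79826376-79826435 in mm9. FAKi tumours spanned 1.46 to 2.35 (median 1.94), and vehicle tumours spanned 1.92 to 2.76 (median 2.5). All 6 FAKi tumours lay under the vehicle mean, and vehicle 1 and 4 lay among them. The difference was -0.44 (SE 0.23, 95% interval -0.94 to 0.07) with an unadjusted p of 0.0834 and an adjusted p of 0.999 in limma. It was -0.58 within slide 1 and -0.37 within slide 4. A second Pdgfb probe, at chr15:79832821-79832880 in mm9 and designed on a cDNA clone, gave a difference of -0.13 and correlated with the first at only r = 0.15 over 12 tumours, so the probes disagreed on the order of the tumours.

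Pdgfc, a second CUB-domain ligand, which acts on the alpha receptor, varied 7.65-fold between the highest and lowest tumour at the probe at chr3:81017844-81017903 in mm9. Values ran from 0.16 to 2.29 in FAKi tumours (median 1.16) and from 0.97 to 3.10 in vehicle tumours (median 1.65). Vehicle 5 was the highest tumour, followed by FAKi 3, and the 3 lowest were FAKi 5, FAKi 4 and FAKi 2. The difference of -0.61 (SE 0.42, 95% interval -1.5 to 0.29) had an adjusted p of 0.999 in limma, and was -1.43 within slide 1 but 0.22 within slide 4. A second Pdgfc probe was well above background on only 3 of 12 arrays and was not used.

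Pdgfa, the ligand typical of epithelial cells, had a difference near 0 at its brighter probe, at chr5:139452934-139452993 in mm9. Its values ran from 3.42 to 4.50 in FAKi tumours (median 3.76) and from 3.31 to 4.37 in vehicle tumours (median 3.55), with 3 of 6 FAKi tumours on each side of the vehicle mean. The difference was 0.08 (SE 0.27, 95% interval -0.49 to 0.66, limma adjusted p = 0.999), and -0.38 within slide 1 and -0.39 within slide 4. The second Pdgfa probe, at chr5:139455132-139455191 in mm9, ran from 1.5 to 3.38 in FAKi tumours and from 1.93 to 2.18 in vehicle tumours. Its SD was 0.64 among FAKi and 0.10 among vehicle tumours, with FAKi 3 highest and FAKi 6 lowest, and its difference was 0.30. It correlated with the brighter probe at r = 0.30 over 12 tumours.

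**Figure D2:**
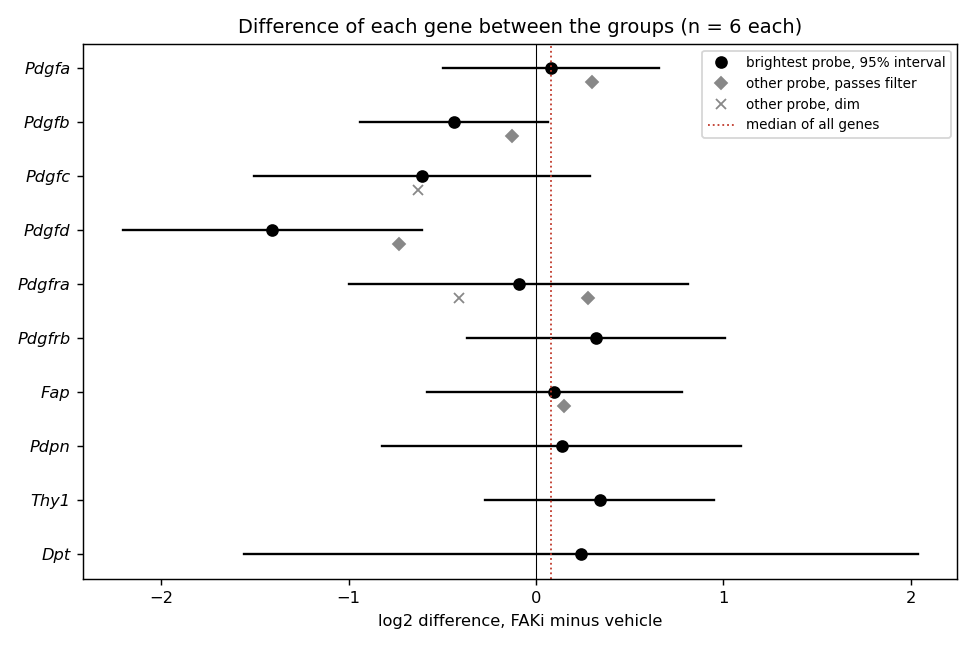
Difference in log2 signal, FAKi minus vehicle (horizontal axis), for the brightest probe of each gene with its 95% interval (black) and for further probes of the same gene (grey diamonds, or crosses where the probe was too dim to be used), n = 6 per group. The interval of Pdgfd, -2.21 to -0.61, is the only one of the 10 that leaves out 0, and that of Dpt, -1.56 to 2.04, is the widest.

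The receptors did not pass the test either. Pdgfra, the alpha receptor and a general marker of fibroblasts, ran from -2.47 to -0.69 in FAKi tumours (median -1.21) and from -2.15 to 0.35 in vehicle tumours (median -1.39). FAKi 4 was the lowest tumour and vehicle 5 the highest, and the rest of both groups lay between them. The difference was -0.09 (SE 0.42, 95% interval -1.0 to 0.81, limma adjusted p = 0.999), and it was -1.11 within slide 1 against 0.92 within slide 4. Without vehicle 5 the difference was 0.22, and without FAKi 4 it was 0.14.

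Pdgfra had 3 probes. The one used lies at chr5:75593888-75593947 in mm9, a second at chr5:75571099-75571158 and a further one at chr5:75579392-75579451, and the last was not well above background on any array. The second probe, designed on a cDNA clone, gave a difference of 0.28 and correlated with the first at r = 0.01 over the 12 tumours. Statements on Pdgfra therefore rest on a single probe.

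Pdgfrb, the beta receptor found on pericytes, smooth muscle and activated fibroblasts, ran from 1.68 to 2.68 in FAKi tumours (median 2.11) and from 1.07 to 3.07 in vehicle tumours (median 1.63). Both the highest tumour, vehicle 5, and the lowest, vehicle 1, were vehicle tumours, and the FAKi values lay inside that span. The means were 2.14 ± 0.41 in FAKi and 1.81 ± 0.68 in vehicle tumours (SD, n = 6 each), a difference of 0.32 (SE 0.32, 95% interval -0.37 to 1.01, limma adjusted p = 0.999). It was 0.13 within slide 1 and 0.28 within slide 4.

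Fap showed a narrow band of FAKi values. They ran from 0.48 to 1.21 in FAKi tumours (median 0.76) and from -0.29 to 1.58 in vehicle tumours (median 0.64). Vehicle tumours held the 2 highest values, vehicle 5 and 6, and the 2 lowest, vehicle 1 and 2. The SD was 0.26 in FAKi and 0.73 in vehicle tumours, a difference in spread that was not tested, and the difference in means was 0.10 (SE 0.32, 95% interval -0.58 to 0.78, limma adjusted p = 0.999). Within slide 1 it was 0.02 and within slide 4 it was -0.21.

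The probes of Fap gave the closest match within one gene, at r = 0.95 over the 12 tumours. They lie at chr2:62339001-62339060 and at chr2:62340501-62340560 on the minus strand of mm9, and the second gave a difference of 0.15 beside 0.10. Its SD was 0.23 in FAKi and 0.50 in vehicle tumours, so the narrower FAKi band was seen with both probes. The second probe is shown because the order of tumours for Fap hardly depended on which of its probes was read; 2 of its 3 forward frames hold no stop codon.
Fap second probe: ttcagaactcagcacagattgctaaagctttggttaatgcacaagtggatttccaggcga

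Pdpn ran from 1.14 to 2.75 in FAKi tumours (median 2.27) and from 0.73 to 3.13 in vehicle tumours (median 1.73). Vehicle 5 and 6 were the highest tumours and vehicle 2 and 1 the lowest, the same 4 tumours as for Fap. The difference was 0.14 (SE 0.45, 95% interval -0.82 to 1.1, limma adjusted p = 0.999), with -0.25 within slide 1 and 0.53 within slide 4. The only Pdpn probe lies at chr4:142857423-142857482 in mm9.

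Thy1, a marker shared by fibroblasts, T cells and some endothelial cells, ran from 4.37 to 5.28 in FAKi tumours (median 4.77) and from 3.51 to 5.24 in vehicle tumours (median 4.51). Vehicle 1 lay well below the rest, and 5 of 6 FAKi tumours were above the vehicle mean. Thy1 averaged 4.79 ± 0.35 in FAKi and 4.45 ± 0.58 in vehicle tumours (SD, n = 6 each), a difference of 0.34 (SE 0.28, 95% interval -0.27 to 0.95, limma adjusted p = 0.999). It was 0.60 within slide 1 and -0.20 within slide 4. The Thy1 probe lies at chr9:43856591-43856650 in mm9. The T cell marker Cd3e, which codes for a chain of the T cell receptor complex, had a difference of 0.09, and the score of the 8 T cell genes ran from -1.09 to 1.44 in FAKi and from -0.76 to 0.48 in vehicle tumours. FAKi 5 had the highest T cell score and Thy1 value, while FAKi 3 had the lowest score and the third highest Thy1 value. The part of T cells in the Thy1 values was not tested.

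Dpt, with 1 probe at chr1:166753703-166753762 in mm9, was the most variable of the 10 genes. Its highest tumour, FAKi 3, had 42.3 times the signal of the lowest, vehicle 1, and its residual SD stood at the 97.2 percentile of all genes. Values ran from -3.32 to 1.67 in FAKi tumours (median -1.18) and from -3.73 to 0.89 in vehicle tumours (median -1.55), so that each group held tumours near both ends. The difference of 0.24 (SE 0.84) had a 95% interval of -1.56 to 2.04 and an adjusted p of 0.999 in limma. It was -1.70 within slide 1 and 1.05 within slide 4, and -0.33 when FAKi 3 was left out. With this spread, a change of Dpt by 1 on the log2 scale in either direction lay inside the 95% interval with 6 tumours per group. No power calculation was made.

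Several of the 10 genes varied together across tumours. Of the 45 pairs, 10 had a correlation that passed a permutation test with 100000 resamples over the 12 tumours after Benjamini-Hochberg adjustment over the 45 pairs, and all 10 were positive. Of the 10 pairs, 8 lay among the receptors and fibroblast markers, and the others were Pdgfa with Pdpn and Pdgfb with Pdgfc. The count was 0 when vehicle 1, vehicle 4 or FAKi 2 was left out, 1 without vehicle 5, 2 without FAKi 5 and 3 without vehicle 3. With any one tumour left out, r stayed between 0.61 and 0.87 for Pdgfrb with Pdpn, Pdgfra with Pdgfrb, Pdgfra with Pdpn and Fap with Thy1, and where these pairs missed the threshold their adjusted permutation p ran from 0.0506 to 0.186. No slide held more than 3 tumours, so no correlation could be computed within a slide. Vehicle 1, whose array had the highest unscaled 75th percentile, was the lowest tumour for Pdgfa, Pdgfrb, Fap, Thy1 and Dpt and the second lowest for Pdgfra and Pdpn. It was the third highest for Pdgfc and Pdgfd. Vehicle 6, whose array had the lowest, was the second highest for Pdgfa, Fap, Pdpn and Thy1. It was not among the 3 highest for Pdgfc, Pdgfd, Pdgfra, Pdgfrb or Dpt. The part of array brightness in these correlations was not tested.

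Pdgfrb and Pdpn had the highest r, 0.79 (Spearman's rho 0.83), with adjusted permutation p = 0.0348 and 0.0322. Leaving out the 2 tumours farthest from the median of Pdgfrb, vehicle 5 and FAKi 2, gave r = 0.74. Within groups it was 0.74 among FAKi tumours (exact permutation p = 0.103) and 0.84 among vehicle tumours (exact permutation p = 0.0083). Exact permutation p-values within groups, here and below, were not adjusted over the 45 pairs. Of all genes, 0.496% had an r at least as high with Pdgfrb and 0.697% with Pdpn, as a description of these arrays.

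The receptors Pdgfra and Pdgfrb correlated at r = 0.77 (adjusted permutation p = 0.0348) and rho = 0.68 (adjusted permutation p = 0.0754). Without vehicle 5 and FAKi 4, the 2 tumours farthest from the median of Pdgfra, r was 0.69. It was 0.66 among FAKi tumours (exact permutation p = 0.151) and 0.91 among vehicle tumours (exact permutation p = 0.0236), and the difference between the groups was not tested. Over all 12 tumours, 0.576% of all genes had an r at least as high with Pdgfra and 0.716% with Pdgfrb. Pdgfra and Pdpn were alike, with r = 0.77, rho = 0.73 and adjusted permutation p of 0.0348 and 0.0627. Their r was 0.68 without vehicle 5 and FAKi 4, and 0.81 among FAKi and 0.77 among vehicle tumours (exact permutation p = 0.0528 and 0.0625). For this pair, 0.646% of all genes had an r at least as high with Pdgfra and 0.980% with Pdpn over the 12 tumours.

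Fap and Thy1, both on the cell surface, correlated at r = 0.77 and rho = 0.78 (adjusted permutation p = 0.0348 and 0.0468). Their r was 0.77 without vehicle 1 and 5, the 2 tumours farthest from the median of Fap, but 0.61 without vehicle 1 alone. It was 0.52 among FAKi tumours (exact permutation p = 0.318) and 0.87 among vehicle tumours (exact permutation p = 0.0181). Of all genes, 3.33% had an r at least as high with Fap and 3.93% with Thy1. Fap had r over 0.7 with 7.30% of all genes, and Thy1 with 6.82%. Fap and Pdpn, a pair picked out after its values were seen, had r = -0.18 among FAKi tumours (exact permutation p = 0.821) and 0.97 among vehicle tumours (exact permutation p = 0.0097). Over all 12 tumours that pair had r = 0.72, rho = 0.69 and adjusted permutation p of 0.0364 and 0.0754. Its r was 0.54 without vehicle 1 and 5. Of all genes, 5.95% had an r at least as high with Fap and 1.77% with Pdpn. The difference between the groups was not tested.

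Ligands did not follow the receptor they act on beyond the test. For Pdgfa with Pdgfra r was 0.52 and rho 0.56 (adjusted permutation p = 0.179 and 0.141), and r was 0.74 without FAKi 3 and vehicle 6. For Pdgfc with Pdgfra r was 0.44 and rho 0.15 (adjusted permutation p = 0.276 and 0.735), and r was 0.37 without vehicle 5 and FAKi 2, but 0.0133 without vehicle 5 alone and 0.68 without FAKi 2 alone. These pairs had r = 0.43 and 0.29 among FAKi tumours (exact permutation p = 0.404 and 0.583) and 0.60 and 0.60 among vehicle tumours (exact permutation p = 0.212 and 0.218).

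Pdgfb with Pdgfra, a pair added after its values were seen, gave r = 0.47 and rho = 0.29 (adjusted permutation p = 0.225 and 0.605), and r was 0.55 without FAKi 4 and vehicle 2. It was 0.72 among FAKi tumours (exact permutation p = 0.108) and 0.41 among vehicle tumours (exact permutation p = 0.436).

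On the beta receptor, Pdgfb with Pdgfrb gave r = 0.22 and rho = 0.07 (adjusted permutation p = 0.626 and 0.911), and r was 0.34 without FAKi 4 and vehicle 2 and -0.0616 without vehicle 5. Pdgfd with Pdgfrb gave r = -0.20 and rho = -0.20 (adjusted permutation p = 0.626 and 0.644), and r was -0.53 without vehicle 2 and 5 and -0.0370 without vehicle 1. Among FAKi tumours r was 0.22 and 0.15 (exact permutation p = 0.640 and 0.828), and among vehicle tumours 0.66 and -0.01 (exact permutation p = 0.138 and 0.981).

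**Figure D3:**
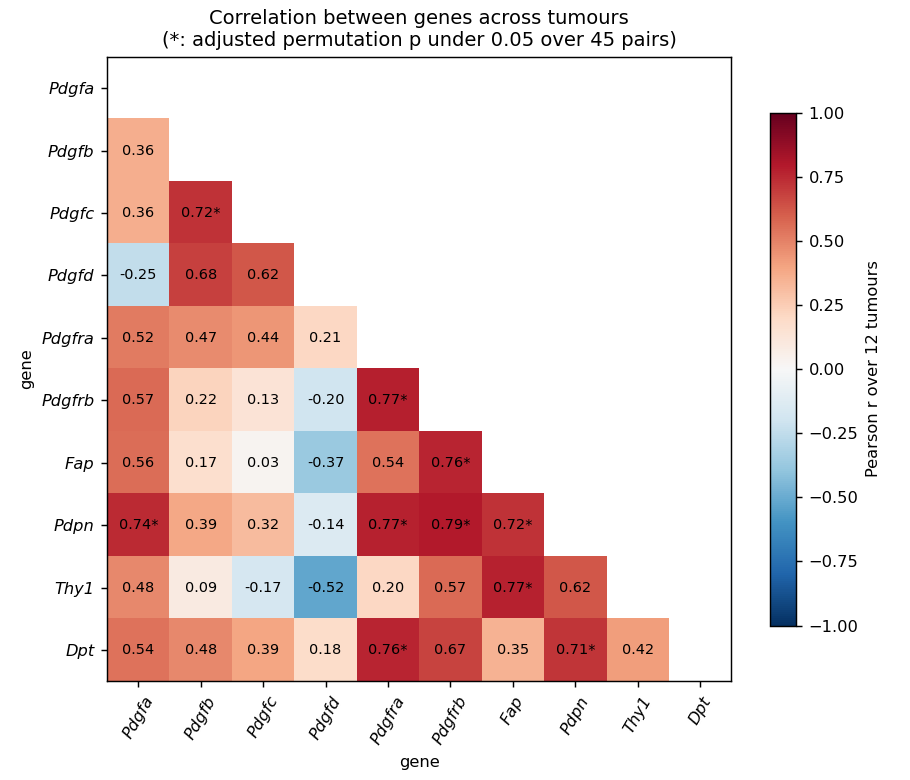
Pearson's r between each pair of the 10 genes over the 12 tumours, printed in each cell and coloured from -1 (blue) to 1 (red), with a star where the permutation p adjusted over 45 pairs was under 0.05. The block of receptors and fibroblast markers holds most of the 10 starred pairs, while Pdgfd has negative r with Pdgfa, Pdgfrb, Fap, Pdpn and Thy1.

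Promoter sequence is shown for Pdgfra, Pdpn and Dpt, since each pair of these 3 genes passed the correlation test and all 3 have an entry among the RefSeq promoters used here. In all, 7 promoters of 6 of the 10 genes were matched (Pdgfa, Pdgfc, Pdgfd, Pdgfra, Pdpn and Dpt). Each run of 280 bases goes from 250 bases before the annotated start to 30 bases after it, in build GRCm38.p6, and capitals mark a motif match. The positions are chr5:75152001-75152280 on the plus strand for Pdgfra, chr4:143299535-143299814 on the minus strand for Pdpn and chr1:164796413-164796692 on the plus strand for Dpt.
Pdgfra promoter: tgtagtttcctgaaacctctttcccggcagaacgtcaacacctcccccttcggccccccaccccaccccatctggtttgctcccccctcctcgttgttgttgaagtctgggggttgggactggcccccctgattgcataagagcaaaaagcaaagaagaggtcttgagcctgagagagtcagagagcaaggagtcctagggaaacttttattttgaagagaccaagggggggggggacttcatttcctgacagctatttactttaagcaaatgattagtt
Pdpn promoter: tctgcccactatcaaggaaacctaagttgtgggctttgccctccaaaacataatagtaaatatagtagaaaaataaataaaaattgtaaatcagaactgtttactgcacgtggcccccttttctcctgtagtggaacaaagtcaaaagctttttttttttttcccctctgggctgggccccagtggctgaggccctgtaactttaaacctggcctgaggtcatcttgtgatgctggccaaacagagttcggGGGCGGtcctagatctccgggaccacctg
Dpt promoter: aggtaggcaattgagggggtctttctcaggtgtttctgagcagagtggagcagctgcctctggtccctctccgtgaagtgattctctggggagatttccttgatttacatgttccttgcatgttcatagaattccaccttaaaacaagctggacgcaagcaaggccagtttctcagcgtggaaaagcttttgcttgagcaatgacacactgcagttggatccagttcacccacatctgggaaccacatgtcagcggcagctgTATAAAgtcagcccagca

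Each of the 7 windows was searched on both strands for 4 motifs, chosen after the values were seen: the TATA box TATAAA, the GC box GGGCGG, the TEAD motif GGAATG and the AP-1 motif TGANTCA. Of 32851 RefSeq promoters of the same length, 13.1% hold the TATA letters, 34.7% the GC box letters, 13.9% the TEAD letters and 7.46% the AP-1 letters. Pdpn held a GC box 1 base past the annotated start, Dpt held TATAAA 12 bases past it, and the Pdgfra window held none of the 4. Pdgfd held TATAAA, Pdgfc held the TEAD letters, both Pdgfa windows held the GC box, and no window held the AP-1 letters or matches of different motifs. The 3 windows printed shared none of these motifs, and their GC content was 51.4% for Pdgfra, 46.1% for Pdpn and 49.6% for Dpt.

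For each of the 10 genes, the 3 named genes with the closest pattern were found by Pearson's r over the 12 tumours, with each group centred on its mean, among 16550 named genes. Likeness was highest for Thy1, whose nearest genes were Bola2 (r = 0.98), Nme1 (r = 0.98) and Anxa1 (r = 0.98). The nearest of Fap were Calcrl (r = 0.96), Cd248 (r = 0.95) and Il2rg (r = 0.94). With Fap these had r = 0.82, 0.63 and 0.83 among FAKi tumours, and 0.98, 0.98 and 0.96 among vehicle tumours. Dpt was nearest to Adgrd1 (r = 0.96), Dcn (r = 0.95) and Pmp22 (r = 0.94). Dcn, the gene of the proteoglycan decorin, is the only one of these that is also on the pan-fibroblast list.

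The nearest of Pdgfrb were Dock2 (r = 0.95), Sema6d (r = 0.95) and Pde2a (r = 0.94), and those of Pdgfra were Wipf1 (r = 0.94), B3galnt1 (r = 0.93) and Clec4a1 (r = 0.93). Pdpn was nearest to Fdps (r = 0.95), Angptl4 (r = 0.95) and Aebp1 (r = 0.95). Among the ligands, Pdgfd was nearest to Sdf2 (r = 0.95), Nuak2 (r = 0.92) and Nsf (r = 0.91), and Pdgfc to Plcb4 (r = 0.94), Kazald1 (r = 0.91) and Zic5 (r = 0.90). Pdgfb was nearest to Egfr (r = 0.91), Gadd45g (r = 0.91) and Rsph9 (r = 0.90), and Pdgfa to Tubb6 (r = 0.92), Ppp1r14c (r = 0.90) and Pcdhb3 (r = 0.89). No gene appears under more than one of the 10, and the values describe the best of many over tumours that share their arrays.

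Downstream of the receptors, none of the 26 genes listed for PDGF receptor signalling passed adjustment in limma. An unadjusted p under 0.05 was reached by 0 of 26, beside 4.79% of all genes. Differences were above 0 for 17, beside 60.5% of all genes, and below 0 for 9. They ran from -0.41 to 0.52, with a median of 0.12. The smallest unadjusted p belonged to Shc1, an adaptor that links activated receptors to Ras, with 1.17 ± 0.36 in FAKi and 1.59 ± 0.46 in vehicle tumours (SD, n = 6 each), a difference of -0.41 (limma, unadjusted p = 0.132). Pik3ca, a catalytic subunit of PI3 kinase, followed with a difference of -0.40 (limma, unadjusted p = 0.140), and all 6 FAKi tumours lay below the vehicle mean.

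Of the 9 genes listed for processing and binding of PDGFs, 5 were above 0, beside 60.5% of all genes, and 4 below. Plat, the tissue plasminogen activator, which activates PDGF-CC, was the one with an unadjusted p under 0.05, beside 4.79% of all genes. It averaged 2.19 ± 0.26 in FAKi and 1.55 ± 0.45 in vehicle tumours (SD, n = 6 each), a difference of 0.64 (SE 0.24, unadjusted p = 0.0196, adjusted p = 0.999 in limma), and all 6 FAKi tumours were above the vehicle mean. Plau, the urokinase that can activate PDGF-DD, had a difference of 0.40 (SE 0.42, limma unadjusted p = 0.364).

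Other fibroblast genes were likewise without a call. Of 18 pan-fibroblast genes, 11 were above 0, beside 60.5% of all genes, and 7 below, with a median of 0.03. In limma, 0 reached an unadjusted p under 0.05, beside 4.79% of all genes. Fbln1, a matrix glycoprotein, averaged 2.10 ± 0.87 in FAKi and 1.25 ± 0.65 in vehicle tumours (SD, n = 6 each), a difference of 0.85 (limma, unadjusted p = 0.0597). Col6a2, a chain of type VI collagen, had a difference of 0.78 (limma, unadjusted p = 0.190). Contractile fibroblast genes were above 0 for 2 of 7, and inflammatory fibroblast genes for 5 of 8. Among the 8 inflammatory genes, 1 was lower at an unadjusted p under 0.05, beside 2.08% of all genes.

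Pericytes are the other main cell with PDGF receptors. Of 8 pericyte genes 6 were below 0, with a median of -0.25, while 60.5% of all genes were above 0. At an unadjusted p under 0.05, 1 pericyte gene was lower, beside 2.08% of all genes. That gene was Abcc9, a subunit of a potassium channel of pericytes, at -1.86 ± 0.37 in FAKi and -1.18 ± 0.44 in vehicle tumours (SD, n = 6 each), a difference of -0.68 (SE 0.26, unadjusted p = 0.0199, adjusted p = 0.999 in limma). Rgs5, a pericyte regulator of G protein signalling, had a difference of -0.77 (SE 0.42, limma unadjusted p = 0.0894), and for both genes all 6 FAKi tumours lay below the vehicle mean. The pericyte score overlapped, from -0.78 to 0.39 in FAKi and from -0.27 to 0.27 in vehicle tumours.

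The other cell type lists gave no call after adjustment. Platelet genes, counted because platelets carry PDGF, were above 0 for 5 of 5, beside 60.5% of all genes. Their median was 0.20, and 1 was higher at an unadjusted p under 0.05, beside 2.72% of all genes. Acinar genes were above 0 for 5 of 5 measured, adipocyte genes for 0 of 5, lymphatic endothelial genes for 0 of 3, mesothelial genes for 3 of 4, T cell genes for 5 of 8, macrophage genes for 4 of 7 and epithelial tumour genes for 5 of 8. Of the defining markers, Pecam1 of endothelium had a difference of -0.13, Epcam of epithelium -0.55 (SE 0.62), Lyve1 of lymphatic vessels -0.42 and Adgre1 of macrophages -0.46 (SE 0.40). Epcam and Adgre1 were the lowest genes of their lists, whose medians were 0.05 for epithelial tumour genes and 0.02 for macrophage genes.

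**Figure D4:**
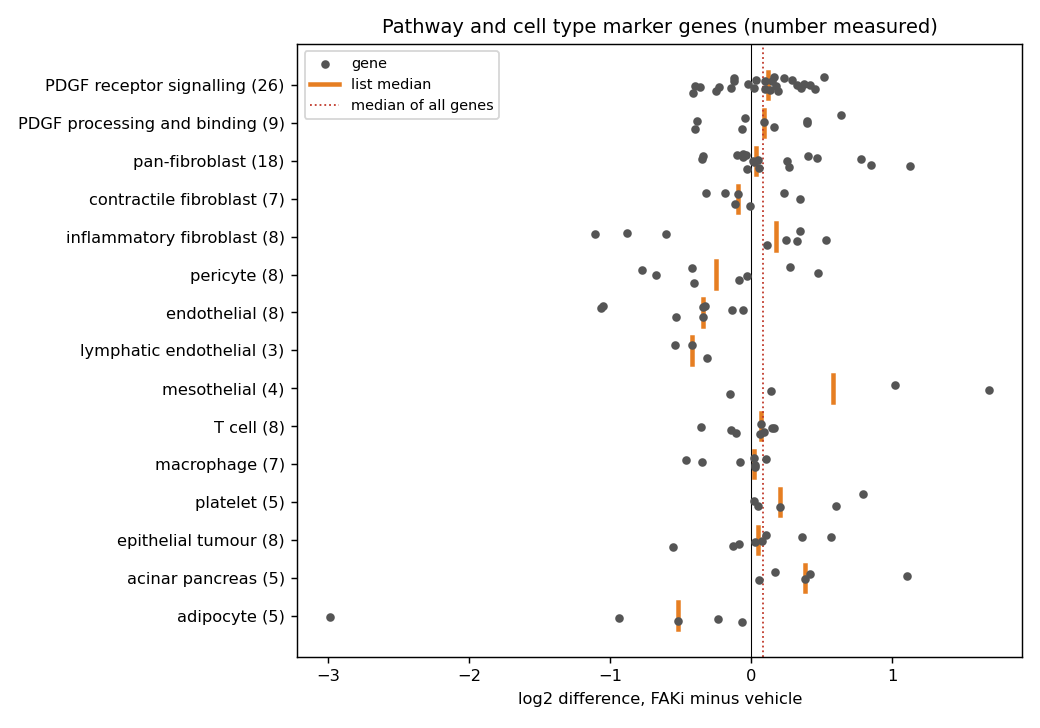
Difference in log2 signal, FAKi minus vehicle (horizontal axis), of every measured gene of the pathway and cell type lists (grey points), with the median of each list (orange bar) and of all genes (dotted line at 0.08); the number after each name is the number of genes measured. PDGF signalling genes lie within -0.41 to 0.52, all 8 endothelial genes lie below 0, and the adipocyte list reaches -2.98.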

How the data were processed

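RNA of 6 FAKi and 6 vehicle tumours was measured on 12 one-colour (Cy5) arrays. The deposited intensity values are those that Agilent Feature Extraction gave the authors, with background subtracted and spatial trend removed, per the file headers. The headers give build mm9, except for FAKi 6. That array was read with another grid file, and its output carries no build or coordinates. A deposited table of log2 values of 38569 probes was an alternative. limma is named in the submitters' processing notes, but no source used here states how that table was normalised. Each of its 12 columns matched its own array best (r of at least 0.9965 across probes), with column medians of 10.71 to 10.90, which does not settle its scaling or its choice of probes.

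Here, log2 processed signal minus each array's 75th percentile was averaged over a probe's spots. Between 71 and 156 spots per array were left out as software outliers, and 0 were saturated. Probes well above background on at least 6 of 12 arrays were kept, and 15 of the 17 probes of the 10 genes passed. Each gene took its brightest probe, and limma 3.58.1 in R 4.3.3 (lmFit, eBayes, no covariate) was fitted to 27352 genes with Benjamini-Hochberg adjustment at 0.05. Genes were named by RefSeq accession (32994 probes), current symbol (10224), synonym (520) or the array's own name (12867), and promoters are from RefSeq GRCm38.p6. The procedures were tested on simulated data.

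The 10 genes and the gene lists were chosen with earlier results of these data known. All 10 genes are given, the 2 genes of smallest unadjusted p for 4 lists, 5 defining markers, the pairs Pdgfra with Pdgfrb, Pdgfa and Pdgfc and Pdgfrb with Pdgfb and Pdgfd, the 3 other pairs of largest r, and 3 nearest genes each. Further choices made after values were seen are named where they occur. Alternatives were other normalisations, background correction, filters, probe summaries, array weights, variance model, replicate block, slide, and each array left out. Of the listed genes, Flt4, Lrrn4, Amy2a5 and Ptf1a were not measured above the filter. Slide 1 held vehicle 3 and 5 and FAKi 5, slide 4 vehicle 2 and 6 and FAKi 1, slide 2 vehicle 1 and 4, slide 3 FAKi 2, 3 and 4, and slide 5 FAKi 6.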

Additional observations from a re-analysis of the deposited data

How the results depend on the processing

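No gene among the 10 passed adjustment in limma under any alternative run. Over all genes, 2 passed with array weights, and 0 to 3 when one array was left out (3 without FAKi 1). The count of genes at an unadjusted p under 0.05, 1311 as reported, was 5029 with array weights, 494 with slide as a fixed block, 3774 without vehicle 6, 3726 without both vehicle 6 and FAKi 6 (an alternative chosen after seeing the data), 763 without FAKi 4 and 872 without FAKi 2. Pdgfd stayed below 0 throughout, at -1.64 to -1.23 with one array left out, -1.07 for the mean of its probes, and -1.68 with array weights (limma adjusted p = 0.0850).

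Before adjustment, p fell under 0.05 for Pdgfb with quantile normalisation (limma p = 0.0378), normexp (0.0184), the authors' deposited table (0.0372) and without vehicle 1 (0.0433), for Pdgfrb with array weights (0.0415) and without vehicle 5 (0.0423), and for Thy1 with array weights (0.0186) and without both vehicle 6 and FAKi 6 (0.0467).

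The sign turned in some settings. Pdgfra was 0.0915 for the mean of its probes and 0.11 with array weights. With slide as a fixed block, Pdgfa was -0.39, Fap -0.0933 and Dpt -0.32. Within slide 1, Pdgfa was -0.38, Pdpn -0.25 and Dpt -1.70, and within slide 4 Pdgfa was -0.39, Pdgfc 0.22, Pdgfra 0.92, Fap -0.21 and Thy1 -0.20. With one array left out, Pdgfa ranged from -0.0537 to 0.21, Fap from -0.0917 to 0.28, Pdpn from -0.0850 to 0.39, Dpt from -0.33 to 0.71 and Pdgfra from -0.28 to 0.22. Without a change of sign, Thy1 ranged from 0.15 (without vehicle 1) to 0.50 (without vehicle 6), Pdgfrb from 0.17 (without vehicle 1) to 0.57 (without vehicle 5) and Pdgfc from -0.83 (without FAKi 3) to -0.35 (without vehicle 5). The causes were not tested. Each brightest probe was well above background on all 12 arrays, and 1 further probe each of Pdgfc and Pdgfra was too dim to be used.

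The 10 correlated pairs became 6 with quantile normalisation and 6 with the authors' deposited table (5 shared with the 10 in each case), 22 with median centring, and 0 to 10 with one array left out. Of 17 alternatives, the adjusted p exceeded 0.05 in 7 for Fap with Thy1, 5 for Pdgfra with Pdpn, and 4 each for Pdgfrb with Pdpn and Pdgfra with Pdgfrb, all with r still positive, while Pdgfa with Pdgfra passed in 1 (median centring, r = 0.70). The r of Pdgfd with Pdgfrb was 0.0752 with median centring and 0.0349 with values centred on each group's mean, and that of Pdgfb with Pdgfrb ranged from -0.0616 to 0.39 with one array left out.

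Replicate numbers are shared by the labels. Same-numbered tumours deviated together at r = -0.12 to 0.49, over 0.1 in 4 of 6 pairs, and 1 FAKi array was most like its own number. With 6 such pairs this cannot show whether the numbers pair the tumours, and the main fit did not pair them. A replicate block gave 0 calls and 1667 genes with p under 0.05 before adjustment, and Pdgfd was -1.41 (limma adjusted p = 0.720).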
